A study of Mus musculus with 12 samples.

Results

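The carboxylesterases described here are the products of 10 mouse genes, Ces1b, Ces1c, Ces1d, Ces1e, Ces1f, Ces1g, Ces2a, Ces2c, Ces3a and Ces3b, read in liver RNA on Affymetrix expression arrays. Their members were every probe set (a group of short probes for 1 transcript) that the platform's annotation gives to 1 of these symbols alone. This gave 8 probe sets of 6 genes among 45101 probe sets on the array, of which 34945 name 1 gene. Ces1d had 3 probe sets, and Ces1c, Ces1e, Ces1f, Ces1g and Ces2a had 1 each. Ces3a and Ces3b had no probe set of their own but shared 1, which cannot be given to either gene, and Ces1b and Ces2c had none. The 8 probe sets were all above their array's median signal on at least 2 of 12 arrays and were tested among 23038 in all.

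Carboxylesterases are serine hydrolases that cleave ester, thioester and amide bonds. Hepatocytes make them in large amounts, most of them held in the lumen of the endoplasmic reticulum, where they hydrolyse drugs, prodrugs and environmental esters, and where some of them also cleave stored triglyceride and cholesteryl ester. The nuclear receptors CAR and PXR, which sense foreign compounds, are known to raise the expression of several drug-metabolizing enzymes in the liver, carboxylesterases among them. In the mouse the family is arranged in tandem clusters on chromosome 8, and its members are close in sequence, so that probes for 1 member can bind transcripts of another.

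All mice were females of 8 to 12 weeks with both alleles of Yap1 flanked by loxP sites (YAP fl/fl). Yap1 encodes YAP, the growth-promoting coactivator at the end of the Hippo pathway. KO mice received AAV8.TBG.PI.Cre.rBG, which drives Cre recombinase from the hepatocyte-directed TBG promoter, so that other liver cells keep the gene. WT mice received AAV8.TBG.PI.eGFP.WPRE.bGH8 and therefore carried the same floxed alleles. After 10 days the mice were gavaged once with 3 mg/kg TCPOBOP, a CAR agonist and liver mitogen, in corn oil, and livers were taken 1 day (day 1) or 2 days (day 2) later, while day 0 mice received the virus alone. A change after day 0 therefore includes the gavage and the oil, which cannot be told apart from TCPOBOP. Whole liver RNA was hybridized for KO day 0 and WT day 0 (2 arrays each), KO day 1 and WT day 1 (1 array of pooled RNA each) and KO day 2 and WT day 2 (3 arrays each), and the number of mice behind a pool is not given in the sources used here. In whole liver, fewer cells of a type and less RNA per cell cannot be told apart. Nothing in the labels states that replicate arrays come from different mice, so the p-values measure the spread between these arrays.

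The values are the deposited MAS5 signals (intensity units scaled to the same trimmed mean on all arrays). They were tested as log2 of the signal plus 16 with limma, adjusted by the method of Benjamini and Hochberg over all 23038 probe sets, and a probe set was called at an adjusted p under 0.05. The spread of signals differed between groups: the highest signal on an array was 48217 to 67457 on KO day 2 arrays and 103216 to 116918 on WT day 2 arrays. Among the 179 tested probe sets with a mean log2 signal over 14, the median KO minus WT difference at day 2 was -0.42 as deposited and 0.05 after quantile normalization, which gives all arrays the same distribution. The signals were fully separated between the arrays of both groups for 38.9% of all tested probe sets between KO day 2 and KO day 0, 44% between WT day 2 and WT day 0, 34.6% between KO day 2 and WT day 2 and 35.4% between KO day 0 and WT day 0, so that such a separation is common here. Each tested comparison was fitted on both scales, values are as deposited unless the text says otherwise, and a genotype difference of an abundant transcript on the deposited scale alone cannot be told apart from this shift. Yap1 itself, read by probe set 1448363_at, was lower in KO at day 2 (log2 difference -0.92 ± 0.17, SE, adjusted p = 0.00923, limma) and had a difference of -1.02 at day 0 that was not called (adjusted p = 0.12), with -0.96 and -1.03 after quantile normalization and the same calls, while its second probe set, 1416487_a_at, was not called at either day. The sources used here do not say where these probes lie relative to the loxP sites. Of 7 hepatocyte markers 6 were measured, and all 6 were above the filter.

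Between day 0 and day 2 Ces2a rose steeply in both genotypes, Ces1f fell in both genotypes and Ces1e fell in KO livers. Ces1c and Ces1g were not called in any day 2 comparison on either scale. For Ces1d, 2 of the 3 probe sets had smaller rises that were called in WT livers as deposited, while 1435371_x_at did not rise there (-0.075). In KO livers the differences of the 3 ran from 0.22 to 0.67, and none was called as deposited. After quantile normalization only Ces1d 1449081_at was called, in both genotypes. For none of the 3 was the KO response minus the WT response called on either scale. The probe set shared by Ces3a and Ces3b, which was not tested, had day 2 minus day 0 differences of -2.62 in KO and -2.51 in WT as deposited. In KO livers 3 of the 8 probe sets were called at day 2 against day 0, with 1 higher (Ces2a) and 2 lower (Ces1e and Ces1f), where 7.27% of all tested probe sets were called (3.39% higher and 3.87% lower). After quantile normalization 4 were called, with Ces1d 1449081_at added to the higher ones, against 7.67% of all. In WT livers 4 were called, with 3 higher (Ces2a, Ces1d 1449081_at and Ces1d 1435370_a_at) and 1 lower (Ces1f), where 11.3% of all were called (6.89% higher and 4.36% lower). After quantile normalization the WT count was 3, without Ces1d 1435370_a_at, against 11.3% of all. The median log2 difference over the 8 probe sets was 0.087 in KO and 0.46 in WT as deposited, beside 0.035 in KO and -0.096 in WT over all tested probe sets. After quantile normalization the members' medians were 0.29 in KO and 0.21 in WT, so that their order turned with the scale. The KO and WT comparisons use different arrays, and the values of both are set side by side in the plot of day 2 minus day 0 differences.

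**Figure D1:**
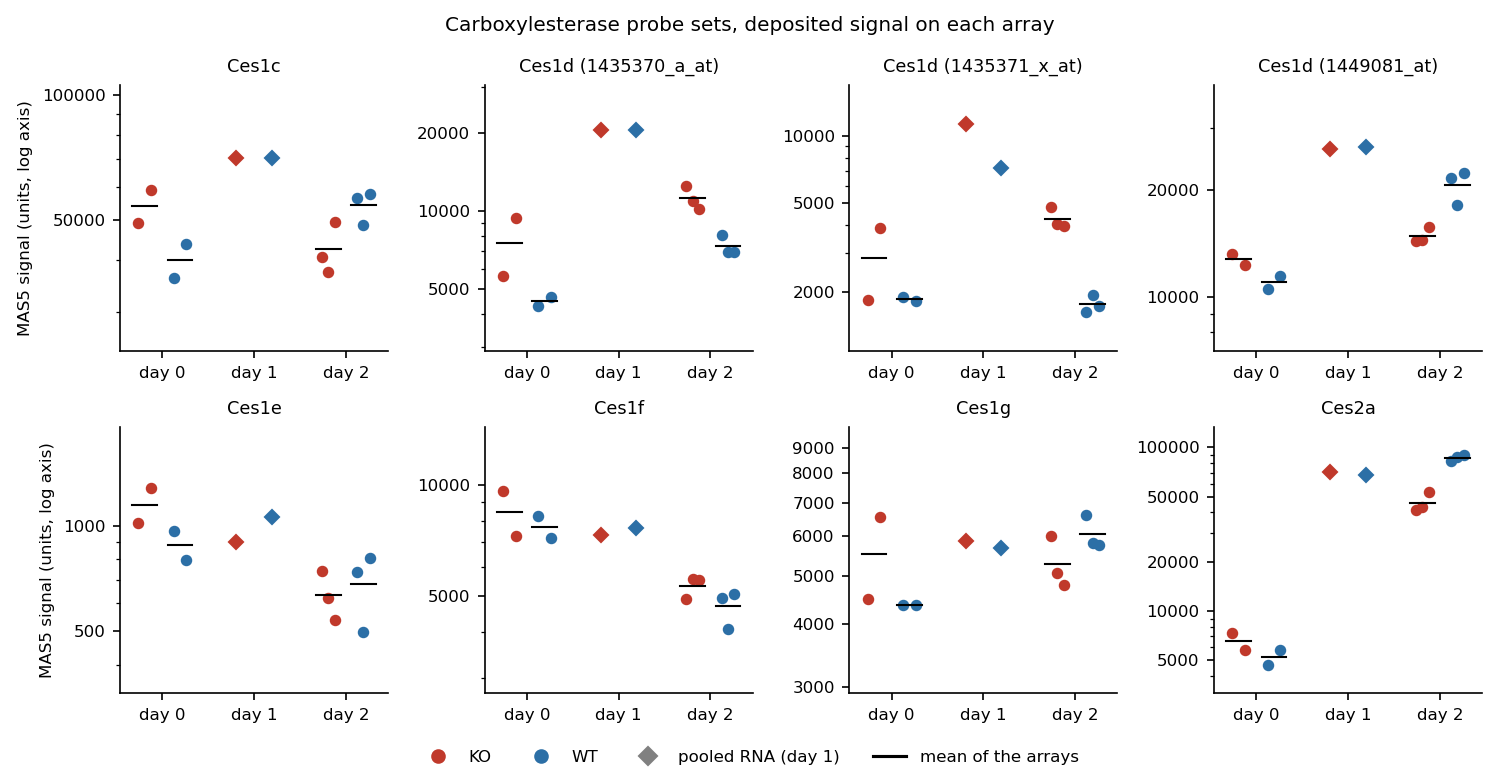
Deposited MAS5 signal (log axis) of the 8 carboxylesterase probe sets on each of the 12 arrays by day, with KO in red left of WT in blue, black lines for the mean of 2 or 3 arrays and diamonds for the pooled day 1 arrays. Ces2a lies between 4710.2 and 7347 at day 0 and at 41183 or above on all later arrays, while Ces1f lies lower on the day 2 arrays of both genotypes than on their day 0 arrays.

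Ces2a belongs to the Ces2 branch of the family, whose enzymes hydrolyse drug esters and amides with a bulky alcohol or amine group. Its probe set, 1449375_at, read 7347 and 5766 units on the KO day 0 arrays and 4710.2 and 5798 units on the WT day 0 arrays. At day 1 it read 70279 units in the KO pool and 67384 units in the WT pool. At day 2 it read 41183, 43286 and 53278 units in KO livers, against 82478, 86948 and 89215 units in WT livers. The genotypes overlapped at day 0, all later arrays were above all day 0 arrays, and the 3 KO arrays were below the 3 WT arrays at day 2.

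By limma, Ces2a was 7.0-fold higher at day 2 than at day 0 in KO livers (log2 difference 2.81 ± 0.15, SE, adjusted p = 9.43e-07). In WT livers it was 16.4-fold higher (log2 difference 4.04 ± 0.15, adjusted p = 2.04e-08). After quantile normalization the differences were 3.31 ± 0.11 in KO and 3.61 ± 0.11 in WT, with adjusted p-values of 8.14e-09 and 3.58e-09. Both rises were also called on both scales when any 1 array was left out.

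The size of the Ces2a difference between genotypes rested on the scale. As deposited, KO livers were lower than WT livers at day 2 by a log2 difference of -0.92 ± 0.13 (adjusted p = 0.00404), and the KO response was smaller than the WT response by -1.23 ± 0.21 (interaction, adjusted p = 0.0179). After quantile normalization the day 2 difference was -0.046 with a 95% interval of -0.26 to 0.16 (adjusted p = 0.808), and the interaction was -0.30 (adjusted p = 0.319). The deposited interaction was also not called without WT day 0 replicate 1 (-1.08, adjusted p = 0.0745) or without KO day 2 replicate 2 (-1.2, adjusted p = 0.0571). Tested probe sets with a mean log2 signal over 14, where Ces2a lies, had a median interaction of -0.57 as deposited and 0.11 after quantile normalization. Ces2a ranked between 11 and 21 among all probe sets on every day 1 and day 2 array, so its quantile-normalized value there is set by the few strongest signals of each array. The summed signal of the 6 hepatocyte markers was also lower in KO at day 2, at 179273 to 228340 units in KO livers and 317952 to 361613 units in WT livers, with 3 of the 6 called lower in KO and a median log2 difference of -0.44. After quantile normalization none was called lower and 1 higher, with a median of 0.17, so that the direction of these markers turned with the scale as well. Their part in the Ces2a difference was not tested.

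Of the 6 measured genes, 4 (Ces1c, Ces1e, Ces1g and Ces2a) had a promoter in the RefSeq table used here (build GRCm38.p6). The 250 bases before the start are shown for Ces2a, the member with the steepest rise, and for Ces1e, a member that fell in KO livers, with the nuclear receptor half-site AGGTCA in capitals where it occurs on the strand of the gene or its complement.
Ces2a, chr8:104733753-104734002, plus strand: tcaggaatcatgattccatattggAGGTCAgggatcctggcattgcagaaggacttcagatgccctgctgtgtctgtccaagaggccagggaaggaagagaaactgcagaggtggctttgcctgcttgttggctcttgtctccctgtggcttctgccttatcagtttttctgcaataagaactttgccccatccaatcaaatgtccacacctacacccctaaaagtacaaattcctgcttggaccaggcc
Ces1e, chr8:93229620-93229869, minus strand: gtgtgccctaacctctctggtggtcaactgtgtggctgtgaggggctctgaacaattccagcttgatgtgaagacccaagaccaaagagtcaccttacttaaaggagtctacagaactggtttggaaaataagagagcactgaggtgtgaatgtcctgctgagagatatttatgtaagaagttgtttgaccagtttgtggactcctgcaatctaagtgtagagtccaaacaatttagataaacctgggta

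In the Ces2a window AGGTCA began 226 bases before the start, on the strand of the gene, and it was not found in the windows of Ces1c, Ces1e and Ces1g. AGGTCA was found on either strand in 14% of all 32851 promoter windows of this length. The related half-site AGTTCA, found in 11.8% of windows, was in none of the 4, and neither was the direct repeat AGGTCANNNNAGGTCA, found in 0.0152%. TATAAA, found in 12.4% of windows, was read 26 bases before the start of Ces1g on the opposite strand and in none of the other three windows. AGGTCA is part of the direct repeat, and these matches describe the letters of the windows only.

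Ces1d, known as triacylglycerol hydrolase, mobilizes stored triglyceride for the assembly of very low density lipoprotein in the hepatocyte. Its 3 probe sets agreed on a peak at day 1 and disagreed on the genotypes at day 2. Probe set 1449081_at read 13277 and 12367 units in KO livers and 10585 and 11490.3 units in WT livers at day 0. It read 26182 units in the KO pool and 26416 units in the WT pool at day 1. At day 2 it read 14432, 14526 and 15823 units in KO livers and 21603, 18166 and 22322 units in WT livers.

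The day 2 arrays of each genotype were above its day 0 arrays, and the KO and WT arrays did not overlap at day 2. In WT livers the rise of 1449081_at at day 2 was called on both scales (log2 difference 0.90 ± 0.12, adjusted p = 0.000546; 0.64 ± 0.10, adjusted p = 0.00129, after quantile normalization), also when any 1 array was left out. In KO livers the difference was 0.22 ± 0.12 as deposited (adjusted p = 0.337) and was called only after quantile normalization (0.41 ± 0.10, adjusted p = 0.0236), where leaving out any 1 array other than KO day 0 replicate 2 took adjusted p to as much as 0.0889. KO was lower than WT at day 2 as deposited (-0.47 ± 0.11, adjusted p = 0.0257), a call lost when any 1 of the 6 arrays except WT day 2 replicate 2 was left out (adjusted p up to 0.102). After quantile normalization this difference was -0.13 and was not called (adjusted p = 0.407). The KO response minus the WT response, -0.68 as deposited (adjusted p = 0.0604), was called without WT day 2 replicate 2 (-0.77, adjusted p = 0.0493) or KO day 0 replicate 2 (-0.73, adjusted p = 0.0497) and was in no such fit after quantile normalization.

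Probe set 1435370_a_at read 5628 and 9363 units in KO livers and 4311 and 4678 units in WT livers at day 0. It read 20449 units in the KO pool and 20512 units in the WT pool at day 1. The day 2 readings were 12543, 10926 and 10204 units in KO livers and 8052, 6922 and 6924 units in WT livers. All KO arrays were above all WT arrays at day 0 and at day 2, while the pools were nearly equal. KO was higher than WT at day 2 by 0.62 ± 0.17 as deposited (adjusted p = 0.0449) and 0.87 ± 0.19 after quantile normalization (adjusted p = 0.0253), calls that were lost on both scales when any 1 of the 6 arrays was left out (adjusted p 0.071 to 0.136 as deposited and 0.0538 to 0.09 after quantile normalization). Its rise in WT livers, 0.70 ± 0.19 (adjusted p = 0.0342), was likewise lost when any 1 array was left out (adjusted p 0.0615 to 0.196) and after quantile normalization (0.56, adjusted p = 0.128).

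Probe set 1435371_x_at, whose suffix marks probes that can bind other transcripts, read 1839 and 3875 units in KO livers and 1907 and 1820.1 units in WT livers at day 0. It read 11351 units in the KO pool and 7213 units in the WT pool at day 1. The readings at day 2 were 4809.9, 4053 and 3956 units in KO livers, against 1628, 1948 and 1742 units in WT livers. The WT day 2 arrays overlapped the WT day 0 arrays, and the 3 KO day 2 arrays were above all 3 WT ones. At day 2 KO was 2.4-fold higher than WT (log2 difference 1.26 ± 0.21, adjusted p = 0.00728; 1.43 ± 0.23, adjusted p = 0.00816, after quantile normalization), and the call was made on both scales when any 1 of the 6 arrays was left out (adjusted p up to 0.0309 and 0.0352). The KO response minus the WT response, 0.74 ± 0.34, was not called (adjusted p = 0.252), but it was 1.28 (adjusted p = 0.0121) without KO day 0 replicate 2, the KO day 0 array on which both this probe set and 1435370_a_at read highest.

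Without KO day 0 replicate 2, the KO rise at day 2 was also called for 1435370_a_at (0.99, adjusted p = 0.00298) and 1435371_x_at (1.20, adjusted p = 0.00139). These fits leave 1 KO day 0 array, whose spread is taken from the remaining groups. The 2 KO day 0 arrays differed, and from 2 arrays it cannot be told which of them stood apart. Neither probe set was called with both KO day 0 arrays (0.62, adjusted p = 0.0712, and 0.67, adjusted p = 0.127). The summed signal of the 2 adipocyte markers that passed the filter, Fabp4 and Cidec, was 783 to 828 units in KO and 436 to 602 units in WT at day 2, with Adipoq and Lep below the filter and Plin1 without a probe set of its own. Fabp4 was higher in KO by 1.19 (adjusted p = 0.00579), whereas Cidec had a difference of -1.02 that was not called (adjusted p = 0.209). That of the 7 sinusoidal endothelial markers was 9537 to 11264 units in KO and 8190 to 9250 units in WT, with 1 of the 7 called higher. The part of these cells in the higher KO readings of 1435370_a_at and 1435371_x_at was not tested.

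**Figure D2:**
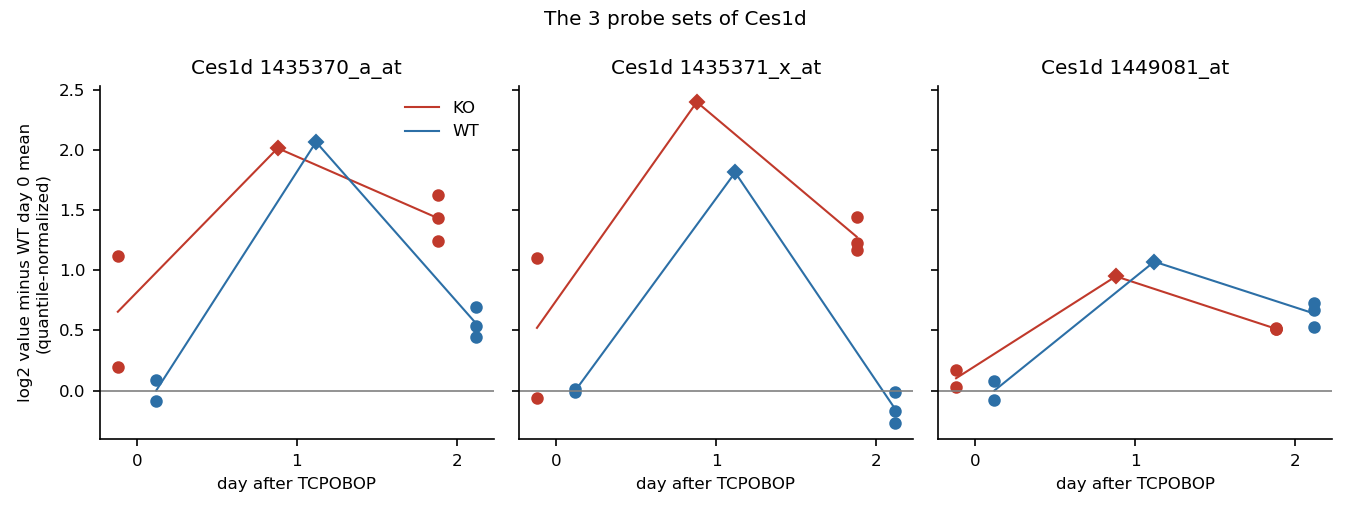
The 3 Ces1d probe sets as quantile-normalized log2 values minus the WT day 0 mean, by day after TCPOBOP, with KO in red drawn left of WT in blue, circles for arrays, diamonds for the pools and lines through the group means. All 3 are highest at day 1. At day 2 the KO arrays lie above the WT arrays for 1435370_a_at and 1435371_x_at and just below them for 1449081_at.

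Ces1f encodes a second triacylglycerol hydrolase of the endoplasmic reticulum and lipid droplets. Its probe set, 1424266_s_at, whose suffix marks probes that several transcripts share, read 9625 and 7269 units in KO livers and 8232 and 7179 units in WT livers at day 0. It read 7345 units in the KO pool and 7661 units in the WT pool at day 1. At day 2 it read 4903, 5546 and 5543 units in KO livers and 4925, 4078 and 5058 units in WT livers. The day 2 arrays of each genotype were below its day 0 arrays, and the genotypes overlapped at both days.

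Ces1f fell in KO livers by 0.65 on the log2 scale (SE 0.15, adjusted p = 0.0236; by 0.49 after quantile normalization, adjusted p = 0.0346). In WT livers it fell by 0.72 (SE 0.15, adjusted p = 0.00996; by 0.90 after quantile normalization, adjusted p = 0.000747). The KO call was lost on both scales when any 1 array except KO day 0 replicate 2 was left out (adjusted p up to 0.125 as deposited and 0.146 after quantile normalization). The WT call was lost as deposited without WT day 0 replicate 1 (-0.62, adjusted p = 0.11) and was made in all 5 such fits after quantile normalization. At day 2 the KO minus WT difference was 0.19 as deposited (adjusted p = 0.398) and 0.42 after quantile normalization, where it was called (adjusted p = 0.0469) but not when any 1 of the 6 arrays was left out (adjusted p 0.057 to 0.16).

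Ces1g, an esterase with a role in hepatic lipid and lipoprotein metabolism, was read by 1449486_at at 4497 and 6551 units in KO livers and 4378 and 4363 units in WT livers at day 0. It read 5853 units in the KO pool and 5688 units in the WT pool at day 1. At day 2 it read 6008, 5052 and 4799 units in KO livers and 6619.5, 5809 and 5760.2 units in WT livers. The KO day 2 arrays lay within the KO day 0 range, and the WT day 2 arrays were above the WT day 0 arrays. Neither the KO difference (-0.045, 95% interval -0.40 to 0.31, adjusted p = 0.919) nor the WT difference (0.47, 95% interval 0.11 to 0.83, adjusted p = 0.0917) was called. After quantile normalization they were 0.11 in KO (adjusted p = 0.781) and 0.33 in WT (adjusted p = 0.288). The KO response minus the WT response was -0.51 as deposited (adjusted p = 0.248) and was called only without KO day 0 replicate 1 (-0.78, adjusted p = 0.0482), the lower of the 2 KO day 0 readings. After quantile normalization it was -0.22 (adjusted p = 0.679) and was called in none of the 10 fits without 1 array.

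Ces1e, also called egasyn, holds beta-glucuronidase in the endoplasmic reticulum. Its probe set, 1419510_at, read 1016 and 1281 units in KO livers and 965 and 798 units in WT livers at day 0. It read 899.5 units in the KO pool and 1059 units in the WT pool at day 1. By day 2 the readings were 742, 622 and 536 units in KO livers and 734, 496 and 805 units in WT livers. The KO day 2 arrays were below the KO day 0 arrays, whereas the WT arrays of the days overlapped.

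Ces1e fell in KO livers by 0.85 on the log2 scale (SE 0.23, adjusted p = 0.0444; by 0.93 after quantile normalization, adjusted p = 0.0298). The call was lost as deposited when any 1 of the 5 KO arrays was left out (adjusted p 0.0511 to 0.2), and after quantile normalization in 3 of the 5 fits. In WT livers the difference was -0.39 with a 95% interval of -0.89 to 0.10 (adjusted p = 0.307). The KO and WT changes were not shown to differ (interaction -0.45, 95% interval -1.16 to 0.25, adjusted p = 0.453; -0.59 after quantile normalization). Gusb, which encodes the beta-glucuronidase that egasyn binds, was not called in either genotype (0.26 in KO, adjusted p = 0.355, and 0.37 in WT, adjusted p = 0.149).

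Ces1c encodes a carboxylesterase that the mouse liver secretes into plasma. Its probe set, 1416913_at, read 49273 and 58940.1 units in KO livers and 36252 and 43905 units in WT livers at day 0. It read 70466 units in the KO pool and 70651 units in the WT pool at day 1, above every other array. The 6 day 2 readings were 40864, 37433 and 49359.9 units in KO livers and 56665, 48688 and 57757 units in WT livers. The KO arrays were above the WT arrays at day 0, and the genotypes overlapped at day 2. It was called in none of the 5 comparisons, and the sign of its day 2 genotype difference turned with the scale (-0.36, adjusted p = 0.115, as deposited; 0.24, adjusted p = 0.258, after quantile normalization). The interaction, -0.79 as deposited (adjusted p = 0.0685) and called without KO day 0 replicate 1 (-0.92, adjusted p = 0.0422), was 0.079 after quantile normalization.

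**Figure D3:**
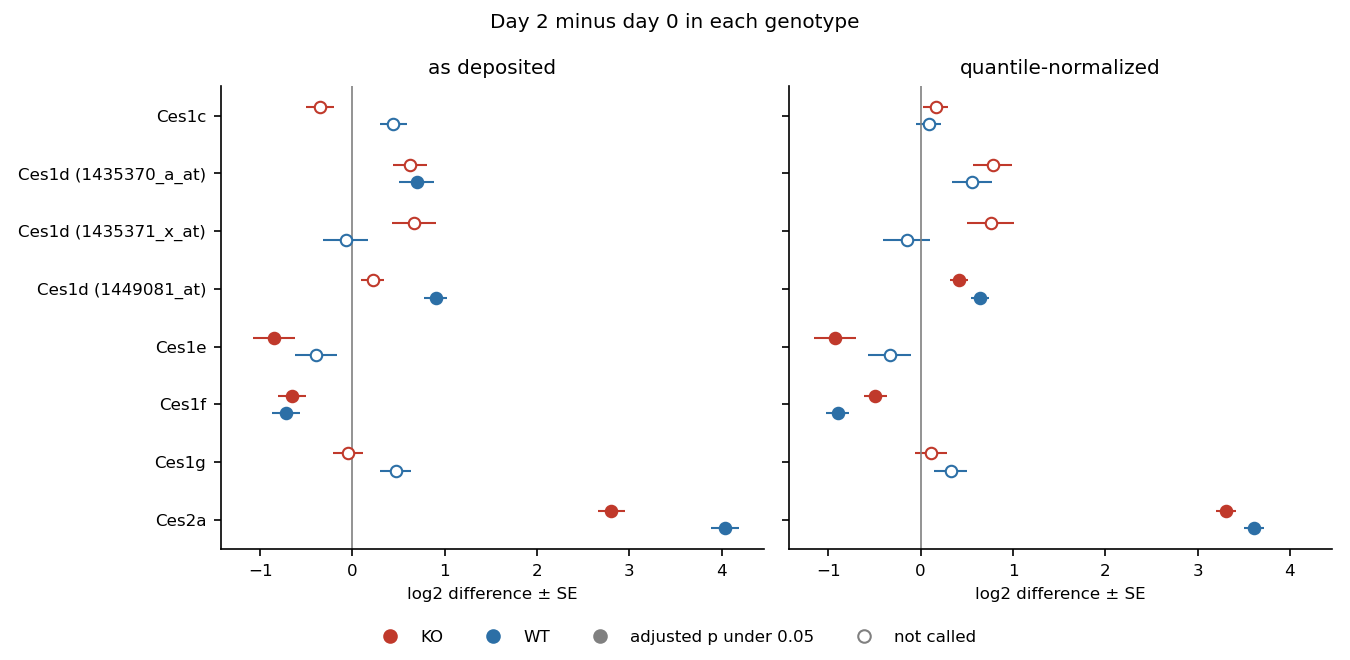
Log2 difference of day 2 minus day 0 for each of the 8 probe sets, as deposited on the left and after quantile normalization on the right, with KO in red above WT in blue, bars for 1 SE and filled points for adjusted p under 0.05. Ces2a lies at 2.81 in KO and 4.04 in WT as deposited and at 3.31 in KO and 3.61 in WT after quantile normalization, and Ces1f lies below 0 in both genotypes on both scales.

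Ces3a and Ces3b were read together by 1451600_s_at, which was not tested because it names both genes. It read 25482 and 22371 units in KO livers and 16920.3 and 17262 units in WT livers at day 0, then 6861 units in the KO pool and 5379.9 units in the WT pool at day 1. At day 2 it read 4416, 3823 and 3452 units in KO livers and 4639, 2151 and 2651 units in WT livers. All later arrays were below all day 0 arrays, the genotypes did not overlap at day 0, where KO was higher, and they overlapped at day 2. The mean log2 value at day 2 was lower than at day 0 by a difference of -2.62 in KO and -2.51 in WT as deposited, and of -2.44 in KO and -2.67 in WT after quantile normalization.

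Between the genotypes, 4 of the 8 probe sets were called at day 2 as deposited, with 2 higher in KO (both Ces1d 1435370_a_at and 1435371_x_at) and 2 lower (Ces1d 1449081_at and Ces2a), where 7.86% of all tested probe sets were called (3.08% higher and 4.78% lower). After quantile normalization 3 were called, all higher in KO (Ces1d 1435370_a_at, Ces1d 1435371_x_at and Ces1f), where 6.37% of all were called. At day 0 none was called, where 0.135% of all tested probe sets were called as deposited and 0.109% after quantile normalization. At day 0 all 8 differences were above 0 on both scales, with a median of 0.34 as deposited and 0.26 after quantile normalization, beside -0.014 and -0.0078 over all tested probe sets. The 8 differences come from the same day 0 arrays, and 3 of them are of Ces1d, so they are not separate evidence. At an unadjusted p under 0.05, 2 were higher in KO at day 0 as deposited, Ces1d 1435370_a_at (0.69) and Ces1c (0.43). Limma gave such a p to 1836 of all tested probe sets, counted in either direction. After quantile normalization Ces1d 1435370_a_at was 0.65 and Ces1c 0.16. The 179 tested probe sets with a mean log2 signal over 14, Ces1c among them, had a median day 0 difference of 0.22 as deposited and -0.011 after quantile normalization. The day 0 differences of 2 Ces1d probe sets rested on KO day 0 replicate 2: over the fits without 1 array, 1435370_a_at ran between 0.33 and 1.06 and 1435371_x_at between -0.019 and 1.05, and both were called only where KO day 0 replicate 1 was left out (adjusted p = 0.0145 and 0.0192). For the KO response minus the WT response, 1 of 8 was called as deposited, Ces2a, where 2.57% of all were called, and none after quantile normalization, where 1.55% of all were called. The day 2 comparison and the interaction share arrays, so they are not separate evidence.

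**Figure D4:**
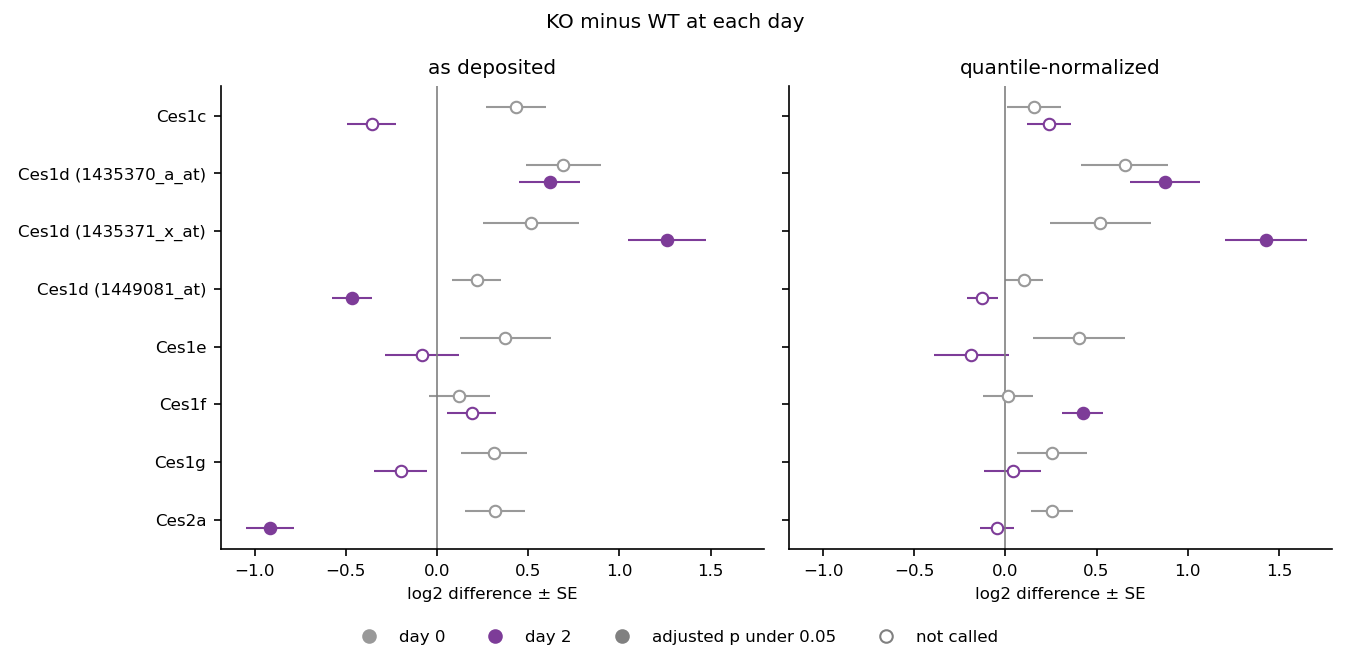
Log2 difference of KO minus WT for each of the 8 probe sets at day 0 (grey, upper) and day 2 (purple, lower), as deposited on the left and after quantile normalization on the right, with bars for 1 SE and filled points for adjusted p under 0.05. All 8 day 0 points lie above 0 without a call, and the day 2 points of all probe sets except Ces1e lie lower as deposited than after quantile normalization.

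At day 1 there was 1 pooled array per genotype, so differences are given without a test. Set against the mean of its own day 0 arrays, 4 of the 8 probe sets were past 2-fold in the KO pool as deposited, all higher, where 7.25% of all tested probe sets were past 2-fold higher. The same 4 were past 2-fold in the WT pool, where 7.91% of all were. They were Ces2a (log2 difference 3.43 in KO and 3.68 in WT) and the 3 Ces1d probe sets (1.03 to 2.08 in KO and 1.26 to 2.19 in WT). After quantile normalization Ces1d 1449081_at was 0.85 in KO, short of 2-fold, and 1.07 in WT. Ces1f differed by -0.19 in the KO pool and -0.0049 in the WT pool as deposited, where both pools lay within the range of their day 0 arrays. After quantile normalization it differed by -0.32 in the KO pool and -0.17 in the WT pool, below both day 0 arrays of each genotype. Between the pools no member was past 2-fold, where 11.0% of all tested probe sets were in either direction, and the widest difference was that of Ces1d 1435371_x_at at 0.65.

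The level of each member was ordered over the 6 groups by its mean log2 value. On both scales WT day 1 and KO day 1 were the highest groups of Ces1c and of the 3 Ces1d probe sets, and KO day 0 and WT day 0 were the lowest groups of Ces2a, overlapping each other. For Ces2a the top group was WT day 2, which did not overlap KO day 1, the next group, as deposited, and which overlapped KO day 2, the next group after quantile normalization. For Ces1f, KO day 0 and WT day 0 were the highest groups and overlapped, and WT day 2 was the lowest, overlapping KO day 2 as deposited only. For Ces1e, KO day 0 was the highest and KO day 2 the lowest group, and of the neighbouring pairs in the order only WT day 1 and KO day 1, each a single pool, did not overlap. For Ces1g the lowest group was WT day 0 on both scales, while the highest was WT day 2 as deposited and KO day 2 after quantile normalization.

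The other carboxylesterase genes on the array with a probe set of their own were Ces1h, Ces2b, Ces2e, Ces2f, Ces2g, Ces4a and Ces5a, which had 10 probe sets, 8 of them tested. With the strongest probe set for each gene, 6 of the 7 genes were measured. In KO livers 1 of 6 rose and none fell at day 2, and the same counts held in WT livers, both on Ces2g, which lies in the cluster of Ces2a. Ces2g read 1843, 1718 and 1617 units at KO day 2 and 1124 and 1095 units at KO day 0, and rose by 0.63 ± 0.13 (adjusted p = 0.0101). In WT livers it read 1881, 1863 and 2026 units at day 2 and 1061 and 1003 units at day 0, and rose by 0.89 ± 0.13 (adjusted p = 0.000762). Between the genotypes at day 2, 1 of 6 was higher in KO and none lower. This was Ces2e, another member of the Ces2 branch, at 2601, 1886 and 1811 units in KO and 986, 923 and 1199 units in WT (log2 difference 1.00 ± 0.17, adjusted p = 0.00718, limma; 1.06 ± 0.17, adjusted p = 0.00782, after quantile normalization). Ces5a was read for this count by 1459865_x_at (-0.22, not called), but another of its probe sets, 1432406_at, was called higher in KO as deposited (1.01 ± 0.23, adjusted p = 0.0216) and not after quantile normalization (0.85, adjusted p = 0.0511). Ces2b, next to Ces2a on the chromosome and named, like Ces5a, after its values were seen, read 94, 97.9 and 107 units in KO and 706, 268 and 155 units in WT, and its difference of -1.5 ± 0.61 was not called (adjusted p = 0.142).

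Neighbouring enzymes of drug and lipid hydrolysis moved in both directions. Of 14 other xenobiotic ester, amide and epoxide hydrolases 12 were measured, of which 2 rose and 4 fell in KO livers at day 2, and 1 rose and 2 fell in WT livers (2 and 3 in KO, 1 and 5 in WT, after quantile normalization). Ephx1, the microsomal epoxide hydrolase, rose by 1.34 ± 0.12 in KO and by 2.14 ± 0.12 in WT. Ephx2, the soluble epoxide hydrolase, fell by 1.06 in KO and by 1.11 in WT. Nceh1, a microsomal cholesteryl ester hydrolase, rose by 1.33 ± 0.30 in KO, and Faah, which hydrolyses fatty acid amides, fell by 0.83 there. Bche, butyrylcholinesterase, fell by 0.72 in WT. Between the genotypes at day 2 none was higher and 1 lower in KO, Aadac, a microsomal esterase (-0.47, adjusted p = 0.0314), which was -0.15 and not called after quantile normalization, where Bche was called higher (0.53).

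Of 16 genes of triglyceride hydrolysis, lipid droplets and VLDL assembly 15 were measured, of which 4 rose and 4 fell in KO livers, and 4 rose and 2 fell in WT livers. After quantile normalization 4 rose and 3 fell in each genotype. Abhd5, the coactivator of adipose triglyceride lipase, rose by 0.90 ± 0.19 in KO and by 1.34 ± 0.19 in WT. Its counterpart G0s2, an inhibitor of that lipase, fell by 1.24 in KO and by 1.39 in WT. Mgll, monoacylglycerol lipase, fell by 0.95 in KO and by 1.08 in WT. Pnpla3, a lipid droplet protein, rose by 1.5 ± 0.23 in KO and was higher in KO than in WT at day 2 by 0.91 ± 0.21 (adjusted p = 0.0228). Plin5, a droplet coat protein, fell by 1.26 in KO, and Tm6sf2, which acts in VLDL lipidation, rose by 0.68 ± 0.16 in KO and by 1.14 ± 0.16 in WT. Lipa, the lysosomal acid lipase, was the other gene called between the genotypes at day 2, lower in KO by -0.48 as deposited (adjusted p = 0.0309), and was not called after quantile normalization. The call of Bche between the genotypes was made only after quantile normalization. All other calls of genes named in this and the preceding paragraph were of adjusted p under 0.05 by limma as deposited. Those calls were also made after quantile normalization, except the calls of Aadac and Lipa.

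Of 18 CAR and PXR target genes of phase I drug metabolism 15 were measured, of which 9 rose and none fell in KO livers, and 13 rose and 2 fell in WT livers. After quantile normalization 13 rose and none fell in KO livers, with 13 and 2 in WT livers as before. Between the genotypes at day 2, 1 was higher and 5 lower in KO as deposited, and 4 higher and 1 lower after quantile normalization. Beside the 2.81 and 4.04 of Ces2a, Cyp2b10 rose by 4.38 ± 0.11 in KO and by 4.94 ± 0.11 in WT, and Cyp2c55 rose by 5.63 ± 0.17 in KO and by 5.84 ± 0.17 in WT. Both are cytochrome P450 genes, and Cyp2b10 is the classical target of CAR. Of 12 nuclear receptors and hepatocyte factors 11 were measured, and in each genotype none rose and 3 fell, namely Ppara, Cebpa and Nr1i3, which encodes CAR. Nr1i3 fell by 0.63 in KO (adjusted p = 0.0337) and by 0.70 in WT (adjusted p = 0.0138). Of 3 receptors that return proteins to the endoplasmic reticulum, as they do with the resident carboxylesterases, 2 were measured, none was called in KO, and Kdelr2 rose by 0.60 ± 0.16 in WT (adjusted p = 0.0351), a call not made after quantile normalization.

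Some markers of the liver's cell types changed with the days as well. The summed signal of the 6 hepatocyte markers was 179273 to 228340 units at KO day 2 and 306517 to 365292 units at KO day 0, and in WT livers 317952 to 361613 units at day 2 and 264967 to 265381 units at day 0. The 7 Kupffer cell markers summed to 6861 to 8229 units at KO day 2 and 8766 to 9310 units at KO day 0, and in WT livers to 7977 to 8446 units at day 2 and 10105 to 10647 units at day 0. Of these 7, 1 was called lower in KO livers on both scales, while their median log2 difference was -0.0038 as deposited and -0.054 after quantile normalization. In WT livers none was called as deposited (median -0.34), and 1 was called lower after quantile normalization (median -0.35). In KO livers 5 of the 6 hepatocyte markers were called lower at day 2 as deposited (median -0.80), and 1 was after quantile normalization (median -0.084). In WT livers 2 were called higher and 1 lower as deposited, and none higher and 2 lower after quantile normalization. The 5 stellate cell markers tested summed to 6683 to 7434 units at KO day 2 and 8525 to 12846 units at KO day 0, and in WT livers to 5956 to 6848 units at day 2 and 8509 to 9342 units at day 0, with 2 of 5 called lower in each genotype on both scales. The 2 erythroid markers on the array summed to 434 to 477 units at KO day 2 and 864 to 1076 units at KO day 0, and to 501 to 731 units at WT day 2 and 527 to 1141 units at WT day 0. On both scales 1 of the 2 was called lower in KO livers and none in WT livers. The part of these sums in the falls of Ces1e and Ces1f was not tested.

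The profile of each member over the 6 groups, as quantile-normalized group means relative to WT day 0, was compared with those of all genes outside the family, by the mean absolute difference in log2 units over the other 5 groups, and neighbours were named for probe sets whose group means span over 1 log2 unit. For Ces2a the nearest genes were Mical1 (0.37), Gstm3 (0.37) and Prom1 (0.38), beside a median of 2.92 over all probe sets. Ces1d 1449081_at was nearest to Tsr1 (0.052), Nkiras1 (0.053) and Nrbf2 (0.055), beside a median of 0.75. Ces1d 1435370_a_at was nearest to Chil4 (0.11), Psmb4 (0.16) and Surf4 (0.16), beside 1.39, and Ces1d 1435371_x_at to Dnaja1 (0.21), Tubd1 (0.26) and Hspa8 (0.29), beside 1.29. Psmb4, Surf4 and Hspa8 were read by probe sets with the suffix of 1435371_x_at, whose probes can bind other transcripts. Gstm3, Tsr1 and Dnaja1 were read by probe sets with the suffix of the Ces1f probe set, whose probes several transcripts share. Within the family, Ces1c and Ces1g were the closest pair of probe sets (0.18), and the Ces1d probe sets 1435370_a_at and 1435371_x_at were closer to each other (0.33) than 1435370_a_at was to the third Ces1d probe set, 1449081_at (0.72).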

How the data were processed

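The values were deposited by the authors as MAS5 signal intensities, per the submitters' processing notes, in 1 table of 12 arrays, and their trimmed means lay near 500 on every array. A gene was named only from platform annotation, and probe sets naming several genes were not tested. Probe sets above their array's median on at least 2 of 12 arrays (23038, of 14102 genes) were fitted with limma 3.58.1 in R 4.3.3 (trend and robust) on log2 of the intensity plus 16, as 6 group means with 6 residual degrees of freedom, as deposited and after quantile normalization. Fold changes are on the log2(value + 16) scale, which understates changes of low signals. A listed gene was read by its tested probe set of highest mean. Members and lists were chosen with earlier results of these data known. The members' values were all reported. From each list and comparison at most 4 called genes with the widest differences were named, a subset for CAR and PXR targets, and Gusb, Ces2b and Ces5a were chosen after their values were seen. The number of arrays limits the precision. The scripts were tested on simulated data. Alternatives were other normalizations, offsets, filters, thresholds, 1 probe set per gene, a replicate block and leaving out each array.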

Additional observations from a re-analysis of the deposited data

Results flagged for a closer look

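Ces2a (1449375_at) was singled out because its day 2 response differed between the genotypes in the test of the difference itself. The KO response minus the WT response was -1.23 on the log2 scale as deposited (SE 0.21, 95% interval -1.7 to -0.77, adjusted p = 0.0179, limma), with KO at 2.81 and WT at 4.04. It was -0.30 after quantile normalization (adjusted p = 0.319). The highest signal on KO day 2 arrays, 48217 to 67457 units, was below that on WT day 2 arrays, 103216 to 116918 units, and the part of this in the difference was not tested.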

How the results depend on the processing

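The rises of Ces2a were called in both genotypes under every alternative run, and the higher KO level of Ces1d 1435371_x_at at day 2 under every one that tested it (with 1 probe set per gene, Ces1d was read by 1449081_at alone). Where calls were lost or signs turned, the cause was not tested. The number of member probe sets called for the KO response minus the WT response was 1 as deposited, 0 after quantile or cyclic loess normalization, without limma's trend and robust options and with the replicate block after quantile normalization, and 3 with each array centred on its median or at an adjusted p under 0.1. For KO day 2 against day 0 the count of 3 became 5 after cyclic loess, and 1 without trend and robust, in a fit of the compared arrays only, with the replicate block after quantile normalization or at a log2 difference of at least 1. For WT day 2 against day 0 the count of 4 became 2 without trend and robust and 1 at that difference. In this WT comparison the number called higher went from 3 to 5 in a fit of the compared arrays only. It was also 5 at an adjusted p under 0.1 and under median centring. Ces1c and Ces1g were the probe sets added in each case (0.442 and 0.468 in the fit of the compared arrays). Under median centring Ces1f was no longer called lower there (-0.595). For KO against WT at day 2 the count of 4 became 2 with 1 probe set per gene, without trend and robust and with the block after quantile normalization. It became 1 at a log2 difference of at least 1, which Yap1 (-0.918) misses. Leaving out 1 array gave 2 to 3 calls for WT day 2, 1 to 5 for KO day 2, 1 to 3 for KO against WT at day 2, 0 to 2 for the day 0 genotypes, and 0 to 3 for the KO response minus the WT response.

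Centring on the median called Ces1c higher in WT at day 2 (0.566), lower in KO than in WT at day 2 (-0.532) and with a smaller KO response (-0.98), and Ces1g higher in WT (0.591). The values whose signs turned, given here, were not called, and neither were their values as deposited. After quantile normalization Ces1c stood at 0.165 for KO day 2 against day 0, 0.238 for KO against WT at day 2 and 0.0787 for the response difference (KO minus WT), and cyclic loess gave 0.0108, 0.213 and 0.0239, with -0.0131 for WT day 2. Ces1g stood at 0.110 for KO day 2 and 0.0394 between the genotypes, and at 0.0714 and 0.0360 after cyclic loess. The difference between responses of Ces1d 1435370_a_at was 0.220, and 0.350 after cyclic loess. Centring on the median gave 0.0485 for Ces1d 1435371_x_at in WT and -0.120 for Ces1f between responses. Samples with the same replicate number did not deviate together (correlations from -0.01 to 0.03). A pairing without shared deviation would not be seen this way, and the labels do not state whether the numbers pair arrays. With the replicate block Ces1g stood at 0.00613 for KO day 2, and with the block after quantile normalization Ces1c stood at 0.154 and Ces1g at 0.170 for KO day 2, while the other turned signs had the values of quantile normalization alone. Over the fits without 1 array on both scales, signs turned within these ranges. Ces1c ran from -0.0677 to 0.58 for WT day 2, -0.48 to 0.366 for KO day 2, -0.471 to 0.328 for KO against WT at day 2, -0.0452 to 0.572 at day 0 and -0.931 to 0.282 between responses. Ces1g ran from -0.315 to 0.444 for KO day 2, -0.296 to 0.106 for KO against WT at day 2, -0.0803 to 0.588 at day 0 and -0.783 to 0.119 between responses. Ces1f ran from -0.091 to 0.324 for KO against WT at day 0 and -0.134 to 0.515 between responses, Ces1d 1435370_a_at from -0.439 to 0.685 between responses, Ces1d 1435371_x_at from -0.0583 to 1.09 for KO against WT at day 0, and Ces1e from -0.391 to 0.0543 for KO against WT at day 2. Yap1 ran from -1.15 to -0.812 for KO against WT at day 2 and missed the threshold in 1 of these fits, after quantile normalization without KO day 2 replicate 2 (-0.855, adjusted p = 0.0502).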
